A study of Mus musculus with 6 samples.

Results

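The genes described here are the nuclear genes for complexes III, IV and V of mitochondrial oxidative phosphorylation, with cytochrome c. They were chosen by name alone, as protein-coding genes of GENCODE vM21 whose symbols begin with Uqcr, Cox4 to Cox8 or Atp5, with Cyc1 and Cycs added. The rule found 45 of the 46983 genes in the count tables, 9 in complex III, 18 in complex IV and 17 in complex V, plus Cycs. Ribosomal RNA was removed from the RNA before sequencing. The cells were live naive CD4 T cells of male mice, sorted from lymph nodes as positive for TCRb, CD4 and CD62L and negative for CD44. The 2 control libraries came from mice labelled Cmtr1 fl/fl CD4cre -, which carry the floxed alleles but not the Cre transgene, and the 4 Cmtr1 cKO libraries from mice labelled Cmtr1 fl/fl CD4cre +. CD4cre acts in the T lineage from the thymus on, and no control carried Cre with intact Cmtr1. The labels used here do not give the age of the mice. CMTR1 is the enzyme that adds a methyl group to the ribose of the base that follows the mRNA cap, the first one transcribed.

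Complex III (cytochrome bc1) passes electrons from ubiquinol to cytochrome c, complex IV (cytochrome c oxidase) passes them from cytochrome c to oxygen, and complex V (ATP synthase) uses the proton gradient that results to make ATP. Some of their core subunits are encoded by mitochondrial DNA, while the genes described here are transcribed in the nucleus and their proteins are imported. Resting naive T cells depend on oxidative phosphorylation for much of their ATP, and mitochondrial content grows after they are activated. Several complex IV subunits have a ubiquitous form and a second form limited to heart, skeletal muscle or testis.

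Gene counts ran from 9513874 (Cmtr1 cKO 3) to 11949838 (control 1) per library. Values by library are given throughout in the order control 1 and 2, then Cmtr1 cKO 1 to 4. Uniquely mapped reads that overlapped no annotated exon on the gene's own strand are called reads outside exons below. Reads over an exon but on its opposite strand are among them. Their share was 37.23% and 33.96% in controls 1 and 2 and 52.34%, 51.59%, 46.67% and 38.02% in Cmtr1 cKO 1 to 4. The 95% Wilson interval was 33.93% to 33.98% for control 2 and narrower for the others. Cmtr1 cKO 4 was thus close to the controls. Cmtr1 cKO 3 stood apart in strand, with 5.57 reads on the gene strand for each on the other, against 18.7 to 22.7 in the other libraries. Its share of reads outside exons thus takes in more opposite-strand reads than those of the other libraries. The share without such reads is not given here. Cmtr1 itself had 11.2 and 11.4 CPM (reads of a gene scaled to a common library size) in control against 16.0, 19.8, 14.6 and 7.57 CPM in Cmtr1 cKO. The labels used here do not say which exon was deleted, so these gene counts do not check them. Marker sums are given as the lower and the higher control and the range of Cmtr1 cKO. All 8 markers of naive CD4 T cells on the list passed the filter on low counts, with summed levels of 5523 and 5706 CPM in control against 5113 to 5987 CPM in Cmtr1 cKO. In the edgeR test described below 1 of the 8, Ccr7, was called lower and 0 were called higher. Ccr7 had 466.9 and 461.3 CPM in control against 312.4 to 421.0 CPM in Cmtr1 cKO (log2 fold change -0.36, adjusted p = 0.0433). Ighm, Cd74, Cd44 and Nkg7 of the other lists were also called lower, against 6.77% of all genes. B cell markers summed to 363 and 376 CPM in the controls and to 279 to 312 CPM in Cmtr1 cKO, of which Ighm alone gave 340 and 344 CPM and 260 to 282 CPM. Markers of myeloid or dendritic cells summed to 55.2 and 59.4 CPM and to 26.1 to 41.6 CPM, CD8 T cell markers to 23.6 and 28.7 CPM and to 17.0 to 21.3 CPM, and markers of effector or memory cells to 39.4 and 45.5 CPM and to 26.5 to 33.6 CPM. NK cell markers (2.14 and 3.94 CPM against 1.16 to 2.41 CPM) and regulatory T cell markers (104 and 153 CPM against 119 to 163 CPM) overlapped between the groups. So did erythroid markers (2.01 and 3.89 CPM against 0.635 to 2.78 CPM) and stromal markers (308 and 320 CPM against 319 to 340 CPM, nearly all of it Pecam1, with Pdpn at 0). The part of these other cells in the results below was not tested.

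Of the 45 genes, 38 passed the filter on low counts and were tested. The 7 that did not are all complex IV genes, and each is a second form of a subunit. Cox6a2, Cox7a1 and Cox8b are the heart and muscle forms, Cox6b2 and Cox8c are testis forms, and Cox4i2 and Cox7b2 are the other second forms. Cox8b and Cox8c had 0 counts in all 6 libraries, and the other 5 had 0 to 3 counts in each library. A count of 0 allows up to 3 counts per library, or 0.251 to 0.315 CPM before scaling. The ubiquitous forms Cox4i1, Cox6a1, Cox6b1, Cox7a2, Cox7b and Cox8a were all tested.

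Levels of different genes are compared here only as control CPM per kilobase of the gene's principal transcript. On this scale the F1 catalytic subunit gene Atp5b (277.5) and Cox7a2l (277.1) were highest, followed by Uqcrh (240.4), the other large F1 subunit gene Atp5a1 (216.8) and Cox4i1 (215.5). Atp5s, whose product is known as factor B and is not a core subunit, was lowest among tested genes at 1.497. Atp5g1 (8.88), Cycs (9.59) and Uqcrq (10.6) came next, and the principal transcripts of these 3 are 4715, 3123 and 1521 bases long, which lowers a value per length where shorter forms are made. The reads of all members came to 0.341% and 0.349% of gene counts in control, against 0.296%, 0.303%, 0.318% and 0.356% in Cmtr1 cKO 1 to 4.

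The starts of 5 of the 8 genes that fell with genotype (described below) and of 1 paralog that was not called are printed first, since the base that CMTR1 methylates is the first one transcribed. Each window is taken from RefSeq promoters on GRCm38.p6 and runs from 90 bases before the annotated start to 10 bases after it, 5′ to 3′ on the strand of the gene. All 6 genes lie on the minus strand, at chr17:83514324-83514423 (Cox7a2l), chr19:7217607-7217706 (Cox8a), chr9:79759844-79759943 (Cox7a2), chr4:116075061-116075160 (Uqcrh), chr15:102671038-102671137 (Atp5g2) and chr2:73911317-73911416 (Atp5g3). For Cox7a2l and Atp5g2 the whole window lies inside the GENCODE gene, whose 5′ end is at 83517330 and 102672352. The first base of these genes thus differs between RefSeq and GENCODE. Capitals mark matches to the ETS motif in Cox8a and Uqcrh and to the NRF1 motif in Atp5g2.
Cox7a2l: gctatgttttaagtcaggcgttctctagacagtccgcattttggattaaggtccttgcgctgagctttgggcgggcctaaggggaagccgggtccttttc
Cox8a: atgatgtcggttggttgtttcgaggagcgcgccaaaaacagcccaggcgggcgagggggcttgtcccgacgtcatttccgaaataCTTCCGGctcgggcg
Cox7a2: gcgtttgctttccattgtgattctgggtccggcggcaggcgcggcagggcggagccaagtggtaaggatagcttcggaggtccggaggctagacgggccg
Uqcrh: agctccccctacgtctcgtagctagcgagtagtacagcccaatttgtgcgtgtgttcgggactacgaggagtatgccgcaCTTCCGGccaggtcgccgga
Atp5g2: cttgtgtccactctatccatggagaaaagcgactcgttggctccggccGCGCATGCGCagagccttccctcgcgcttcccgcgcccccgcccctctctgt
Atp5g3: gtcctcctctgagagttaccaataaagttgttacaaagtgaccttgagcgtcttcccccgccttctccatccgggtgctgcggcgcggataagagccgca

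RefSeq promoter windows of 300 bases (250 before the start and 50 after) were found for 34 of the 45 genes, 30 of them tested. Both strands were searched for the letters of motifs that nuclear respiratory genes are known for. CCGGAAG, the core bound by ETS factors such as GABPA, was present for 10 of the 30 tested genes (33.3%), against 9.9% of all 27025 genes with a window. GCATGCGC, from the NRF1 site, was present for 7 of the 30 (23.3%, against 3.0%), and the NRF1 match printed for Atp5g2 is a palindrome that holds it on both strands. AAGATGGC, from the YY1 site, was present for 3 of the 30 (10%, against 3.2%), and TATAAA for 1 (3.3%, against 15.7%). Among the 5 windows of genes that fell, 2 held the ETS letters, 1 the NRF1 letters and 0 the other motifs. The first transcribed base at the 33 annotated starts of tested genes was A at 10 (30.3%, against 34.4% of all 32851 starts) and C at 7 (21.2%, against 16.3%). It was G at 14 (42.4%, against 35.6%) and T at 2 (6.1%, against 13.7%). A C followed by 4 pyrimidines, the letters of a 5' terminal oligopyrimidine tract, stood at 3 (9.1%, against 2.5% of all starts). The members searched are genes tested here, while the 27025 genes and the 32851 starts were not limited to tested genes. The percentages thus set unlike groups of genes side by side. Annotated starts can differ from those used in T cells, and the letters are a description of the windows only.

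Between the genotypes, 8 of the 38 tested genes were lower in Cmtr1 cKO and 0 were higher at an adjusted p under 0.05 in edgeR's quasi-likelihood test. Over all 12748 genes tested, 6.77% were called lower and 4.66% higher. Without regard to the call, the fold change was below 0 for 32 of the 38, against 50% of all genes, and the median log2 fold change was -0.22, against 0.00 for all genes. For 17 of the 38 every Cmtr1 cKO library was below both controls, against 20.8% of all genes, and for 0 was every Cmtr1 cKO library above both (18.2% of all genes). The genes that fell were Cox7a2l, Cox8a, Cox4i1 and Cox7a2 of complex IV, Uqcrh and Uqcrb of complex III, and Atp5g2 and Atp5mpl of complex V. In these bulk samples a lower level per cell cannot be told apart from fewer cells with the RNA, and CPM are shares of each library's RNA.

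**Figure D1:**
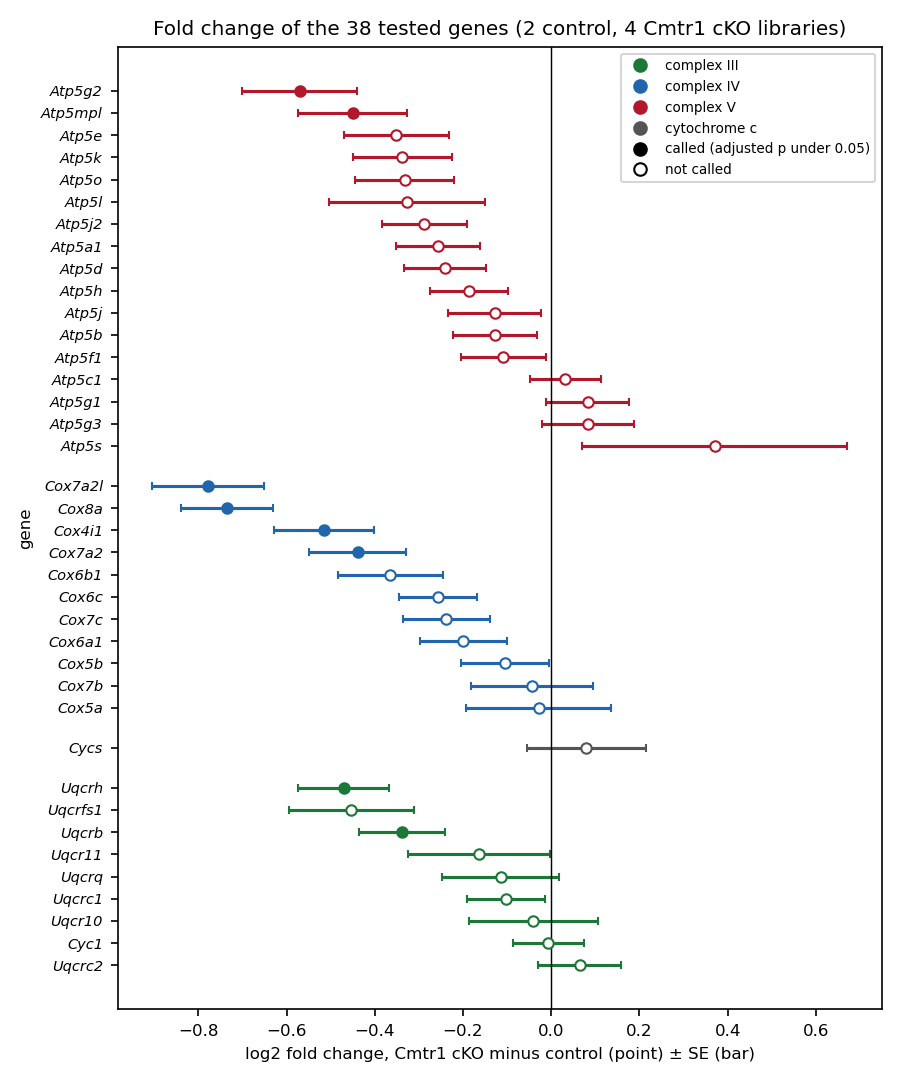
The log2 fold change of each of the 38 tested genes (x axis, Cmtr1 cKO minus control, with its SE as a bar) is plotted by complex, and filled points are the 8 called genes. The called genes lie between -0.78 (Cox7a2l) and -0.34 (Uqcrb), and 32 of the 38 points lie below 0.

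Complex IV had the lowest summed level relative to its controls. The CPM of its 11 tested genes were summed to 985 and 1035 for control against 652, 672, 791 and 857 in Cmtr1 cKO, 73.6% of the control mean. Cox7a2l alone made up 298.2 of the mean sum of 1010 CPM in control and 173.9 of 743.1 CPM in Cmtr1 cKO. Of the 11 genes 4 fell, and for each complex this count stands beside 6.77% of all genes called lower. All 11 had a fold change below 0, with a median of -0.26 on the log2 scale. For 7 of the 11 every Cmtr1 cKO library was below both controls, against 20.8% of all genes. Complex V sums were 1991 and 2124 CPM against 1658, 1711, 1860 and 2062 CPM (88.6%), with 2 of 17 genes lower and a median of -0.24. Complex III sums were 559 and 583 CPM against 464, 461, 520 and 570 CPM (88.2%), with 2 of 9 genes lower and a median of -0.12. In complexes III and V the sum of Cmtr1 cKO 4 was within the range of the controls. Whether the complexes differ from each other was not tested.

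Cox7a2l encodes SCAF1, a protein related to subunit 7A that joins complexes III and IV into supercomplexes. The gene (ENSMUSG00000024248.14) lies on chromosome 17 from 83501918 to 83517330 on GRCm38. Its level was 298.7 and 297.7 CPM in control against 142.4, 157.6, 185.0 and 210.5 CPM in Cmtr1 cKO. The groups did not overlap, Cmtr1 cKO 4 was the highest of its group, and its controls differed by 1 CPM. The log2 fold change of -0.78 ± 0.13 (SE, adjusted p = 0.00486) puts Cmtr1 cKO at 58.3% of the control level and was the largest fall among the members. Without control 1 or control 2 the fold change was -0.77 and the call ended (adjusted p = 0.0588 and 0.0661).

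Cox8a encodes the ubiquitous form of subunit 8, one of the small membrane subunits of complex IV, and lies on chromosome 19 from 7215153 to 7217616 (ENSMUSG00000035885.5). It had 71.0 and 69.1 CPM in control against 36.7, 39.2, 43.9 and 48.6 CPM in Cmtr1 cKO. No Cmtr1 cKO library came near the controls. The log2 fold change was -0.73 ± 0.10 (SE, adjusted p = 0.00165), or 60.1% of the control level. Cox8a was the only member called lower in all 18 fits made (the one reported and 17 alternatives), with log2 fold changes from -0.88 to -0.46.

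Cox4i1 encodes the ubiquitous form of subunit 4, the largest nuclear subunit of complex IV and a site of its regulation by ATP (ENSMUSG00000031818.12, chromosome 8, 120668222 to 120674207). Its level was 157.5 and 172.2 CPM in control against 104.3, 100.4, 118.3 and 138.3 CPM in Cmtr1 cKO. The groups did not overlap, and the log2 fold change was -0.51 ± 0.11 (SE, adjusted p = 0.0184). Without control 1, control 2 or Cmtr1 cKO 3 it was not called. Cox7a2, the ubiquitous form of subunit 7A (ENSMUSG00000032330.7, chromosome 9, 79755361 to 79759878), had 38.6 and 44.1 CPM in control against 25.9, 31.0, 31.2 and 33.6 CPM in Cmtr1 cKO. It fell by 0.44 ± 0.11 (SE, adjusted p = 0.0292) on the log2 scale, and was called in only 1 of the 6 fits that left out a library, the one without Cmtr1 cKO 4. The reads of Cox7a2l for each read of Cox7a2 also went down. On the log2 scale this ratio was 2.95 and 2.76 in control against 2.46, 2.35, 2.57 and 2.65 in Cmtr1 cKO (difference -0.35).

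The other 7 tested complex IV genes were not called. Cox6b1, which encodes the subunit on the side facing the intermembrane space, had the next largest fold change, from 80.2 and 83.6 CPM to 56.0, 54.7, 68.2 and 75.4 CPM (log2 fold change -0.36 ± 0.12, SE, adjusted p = 0.0691). Its groups did not overlap, nor did those of Cox6c (-0.26) and Cox6a1 (-0.20). Cox7c had -0.24, Cox5b, the zinc-binding subunit, -0.10, and Cox7b -0.04. Cox5a, a subunit on the matrix side, had the smallest change, at 32.6 and 37.0 CPM in control against 26.4, 30.9, 35.9 and 43.1 CPM in Cmtr1 cKO (-0.03 ± 0.16, SE). Ndufa4, a complex IV subunit that carries the name of complex I and so is outside the naming rule, was lower by 0.40 on the log2 scale (47.1 ± 2.4 against 35.7 ± 4.8 CPM, SD, n = 2 and n = 4, adjusted p = 0.0441). In the fit that adds the percentage of reads outside exons as a term its log2 fold change was -0.09 and the call ended (adjusted p = 0.728).

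In complex III the hinge protein gene Uqcrh, whose small acidic product binds cytochrome c1, fell most (ENSMUSG00000063882.12, chromosome 4, 116066965 to 116075071). It had 127.5 and 135.5 CPM in control against 86.2, 82.5, 102.7 and 108.1 CPM in Cmtr1 cKO (log2 fold change -0.47 ± 0.10, SE, adjusted p = 0.0172). The groups did not overlap, and without control 1 or control 2 the call ended. Uqcrb, a small subunit near the ubiquinone site (ENSMUSG00000021520.4, chromosome 13, 66900617 to 66905378), had 50.01 and 46.9 CPM in control against 34.2, 36.7, 40.2 and 42.2 CPM in Cmtr1 cKO. Its log2 fold change was -0.34 ± 0.10 (SE, adjusted p = 0.0454), and of the fits without 1 library only that without Cmtr1 cKO 4 called it. The processed pseudogene Gm2962 shares 336 of the 535 bases of its transcript at 98% identity or more, so its count of uniquely mapped reads is uncertain.

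The nuclear genes for the catalytic subunits of complex III, Uqcrfs1 and Cyc1, did not pass the test. Uqcrfs1, the Rieske iron-sulfur protein, had 52.5 and 53.2 CPM in control against 34.2, 30.7, 44.4 and 45.2 CPM in Cmtr1 cKO. Its groups did not overlap, but the spread within Cmtr1 cKO was wide (-0.45 ± 0.14, SE, adjusted p = 0.0604). Cyc1, cytochrome c1, had the same level in both groups within 1 CPM, at 38.98 ± 0.88 CPM (SD, n = 2) and 38.82 ± 0.94 CPM (SD, n = 4), with a log2 fold change of -0.01 ± 0.08 (SE). The core protein genes Uqcrc1 and Uqcrc2 had -0.10 and 0.06, and Uqcrq, Uqcr10 and Uqcr11 had -0.11, -0.04 and -0.16. Set against Uqcrc2 in the same library, the reads of Uqcrh were 0.02 and 0.14 on the log2 scale in control against -0.45, -0.58, -0.33 and -0.48 in Cmtr1 cKO. Cycs, the soluble electron carrier between complexes III and IV that also triggers apoptosis when released, had 30.7 and 29.2 CPM in control against 25.9, 30.1, 32.5 and 38.1 CPM in Cmtr1 cKO. The groups overlapped (0.08 ± 0.13, SE, adjusted p = 0.717).

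**Figure D2:**
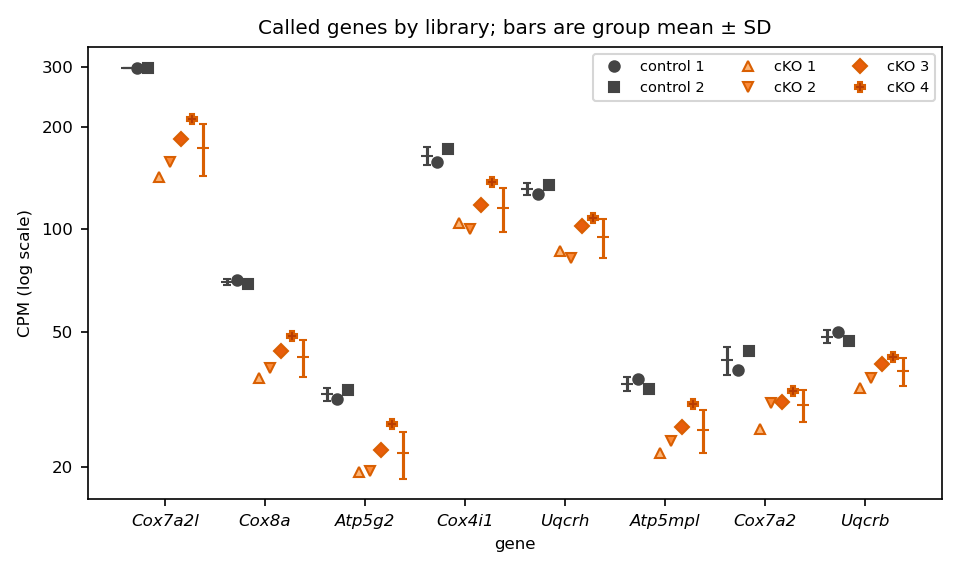
The CPM of the 8 called genes (y axis, log scale) is plotted for each control (grey) and Cmtr1 cKO library (orange), with the mean ± SD of each group as bars. In every gene all 4 Cmtr1 cKO libraries lie below both controls, and Cmtr1 cKO 4 is the highest of them (Cox7a2l from 142.4 to 210.5 CPM, against 297.7 and 298.7 CPM).

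Of the 3 complex V genes for subunit c, which forms the rotating ring in the membrane, 1 fell and 2 were not called. Their precursors differ in the part that directs import and give the same mature protein. Atp5g2 (ENSMUSG00000062683.11, chromosome 15, 102662864 to 102672352) had 31.7 and 33.8 CPM in control against 19.3, 19.5, 22.5 and 26.8 CPM in Cmtr1 cKO. The groups did not overlap and the gene fell to 67.3% of the control level (log2 fold change -0.57 ± 0.13, SE, adjusted p = 0.0207). Atp5g1 had 42.2 and 41.5 CPM in control against 40.4, 41.9, 47.7 and 47.4 CPM in Cmtr1 cKO (0.08 ± 0.09, SE, adjusted p = 0.58). Atp5g3 had 51.2 and 51.4 CPM in control against 47.3, 52.4, 55.1 and 62.5 CPM in Cmtr1 cKO (0.08 ± 0.10, SE, adjusted p = 0.616).

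The ratio of reads between these paralogs does not depend on the scaling of the libraries. The log2 ratio of Atp5g2 to Atp5g3 was -0.69 and -0.60 in control against -1.29, -1.43, -1.29 and -1.23 in Cmtr1 cKO, a difference of -0.66. The log2 ratio of Atp5g2 to Atp5g1 was -0.41 and -0.29 in control against -1.06, -1.10, -1.08 and -0.82 in Cmtr1 cKO, also a difference of -0.66. Both ratios were lower in 4 of 4 Cmtr1 cKO libraries than in either control. The 4 read ratios printed here, these and those of Cox7a2l to Cox7a2 and Uqcrh to Uqcrc2, pair genes chosen with their calls known, so they are a description with no test. The pseudogenes Gm10175 and Gm10231 share 645 of the 731 bases of the Atp5g2 transcript at 98% identity or more and held 0 to 1 counts per library, so its count of uniquely mapped reads is uncertain. Without control 1, control 2 or Cmtr1 cKO 3, Atp5g2 was not called.

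**Figure D3:**
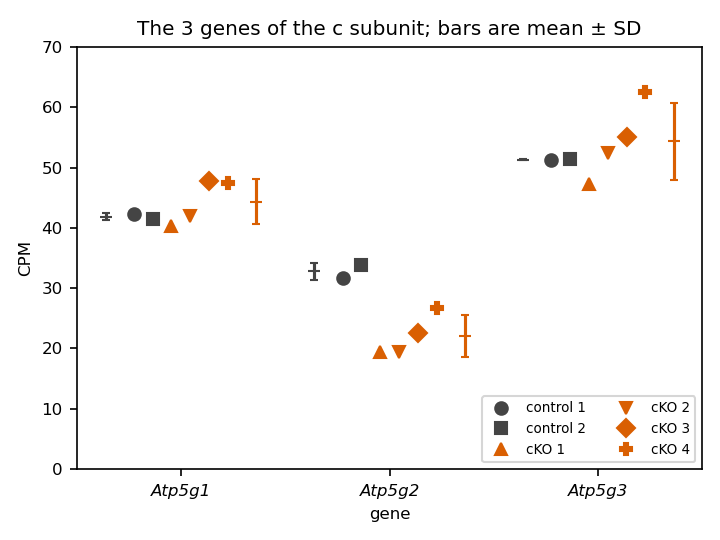
The CPM of Atp5g1, Atp5g2 and Atp5g3 (y axis) is plotted for each control (grey) and Cmtr1 cKO library (orange), with the mean ± SD of each group as bars. Atp5g2 lies at 31.7 and 33.8 CPM in the controls and at 19.3 to 26.8 CPM in Cmtr1 cKO, while the groups overlap for Atp5g1 and Atp5g3.

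Atp5mpl encodes a small proteolipid bound to the membrane part of ATP synthase (ENSMUSG00000021290.6, chromosome 12, 111961375 to 111966977). It had 36.5 and 34.0 CPM in control against 22.1, 23.9, 26.3 and 30.7 CPM in Cmtr1 cKO, with no overlap (log2 fold change -0.45 ± 0.12, SE, adjusted p = 0.0394). Of the fits without 1 library only that without Cmtr1 cKO 4 called it, and the correction for length and GC content ended its call with a log2 fold change of -0.39 (adjusted p = 0.0595). The other small membrane subunit genes Atp5k (e), Atp5j2 (f) and Atp5l (g) had log2 fold changes of -0.34, -0.29 and -0.33 and were not called. Usmg5, a further small membrane subunit outside the naming rule, had -0.13.

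None of the 5 genes of the F1 part, which makes the ATP, was called (median -0.24). Atp5a1, for the alpha subunit, had 523.3 and 548.1 CPM in control against 410.4, 415.1, 456.1 and 511.5 CPM in Cmtr1 cKO, without overlap (-0.26 ± 0.09, SE, adjusted p = 0.0951). Atp5b, for the beta subunit, which carries the catalytic sites, had 505.2 and 558.1 CPM and 435.5, 468.1, 497.0 and 546.9 CPM, with overlap (-0.13 ± 0.10, SE). In the central stalk, Atp5c1 (gamma) had 0.03, Atp5d (delta) -0.24 and Atp5e (epsilon) -0.35 on the log2 scale. In the peripheral stalk, which holds F1 against rotation, Atp5o (OSCP) had -0.33, Atp5h (d) -0.19, Atp5j (F6) -0.13 and Atp5f1 (b) -0.11, and 0 of 4 were called. In the test without Cmtr1 cKO 4, 3 of the 5 F1 genes and 3 of the 4 stalk genes were called lower. In that test 15.4% of all genes were called lower. Atp5s had the highest fold change of all members (0.37 ± 0.30, SE, adjusted p = 0.428) at 2.39 ± 0.05 CPM (SD, n = 2) against 3.12 ± 0.79 CPM (SD, n = 4).

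Some of these genes share a locus with others. Exons of Atp5j overlap 397 bases of Gabpa, which encodes the DNA-binding subunit of the ETS factor GABP and lies on the other strand. The log2 fold changes were -0.07 ± 0.08 (SE) for Gabpa and -0.13 ± 0.10 for Atp5j. The opposite strand of Atp5j held 449 reads over the 6 libraries, against 3119 on its own, and those of Atp5f1 and Cox6c held 518 and 475, and only reads on the own strand were counted. A second gene named Atp5o (ENSMUSG00000116933.1) of the annotation was not analysed here.

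The members that fell were mostly short. Of the 23 tested genes with a principal transcript under 1000 bases 7 fell, with a median log2 fold change of -0.33. Of the 15 longer ones 1 fell, Cox7a2l, with a median of -0.10. Over all genes tested, of any length, 6.77% were called lower. Shares for all short and all long genes are not given here, so a length pattern particular to the members is not shown. Across the 38 genes, which share the same libraries, Spearman's rho of the log2 fold change with transcript length was 0.46, with GC content -0.28 and with control CPM -0.19. With the trend on length and GC content removed in each library, 7 of the 8 stayed called, the median over members was -0.19 and 0 were called higher (7.1% of all genes were called lower). For scale, 79 of 84 ribosomal protein genes, also short mRNAs, were called lower, with a median of -0.95.

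Over all members the fall was smaller in Cmtr1 cKO 3 and 4, the libraries of that group with fewer reads outside exons. The share of these reads moved with genotype. The median log2 ratio of the 38 genes to the control mean was -0.33, -0.35, -0.16 and -0.06 in Cmtr1 cKO, where those reads made up 52.34%, 51.59%, 46.67% and 38.02%, against -0.05 and 0.04 in the controls. Cmtr1 cKO 4 was the highest of its group for 32 of the 38 genes, against 4347 of all 12748. In complex IV the median of Cmtr1 cKO 4 was -0.22, below that of Cmtr1 cKO 3 (-0.15) and of both controls (-0.07 and 0.06). In complex III it was -0.034, against -0.021 and 0.020 in the controls, and in complex V -0.067, against -0.046 and 0.045. Without Cmtr1 cKO 4, 21 of the 38 were called lower and 0 higher, against 15.4% of all genes lower, with 3 of 9 in complex III, 7 of 11 in complex IV and 11 of 17 in complex V.

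The members' counts are read against the share of all genes called in the same fit. The share called lower was 6.43% with DESeq2 (8 members), 6.53% with RLE factors (8), 6.42% with TMM factors made without ribosomal protein, mitochondrial and ribosomal RNA genes (8), 7.09% on protein-coding genes (8), 4.43% with no filter (14) and 5.08% on unstranded counts (6). It was 13.3% with limma and library weights (18 members). It was 1.43% and 1.18% without control 1 and 2 (1 member each, Cox8a) and 3.73%, 3.44% and 3.03% without Cmtr1 cKO 1, 2 and 3 (5, 5 and 3 members). On the libraries of replicates 1 and 2 alone it was 19.1% with a replicate block (29 members) and 18.7% without it (27). In these fits 0 members were called higher, against 6.0%, 4.77%, 4.93%, 6.92%, 4.68%, 3.81%, 11.5%, 0.529%, 0.299%, 2.15%, 1.81%, 1.75%, 19.4% and 18.7% of all genes in the same order. It was also 0 without Cmtr1 cKO 4 (15.4%) and after the length and GC correction (4.23%).

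**Figure D4:**
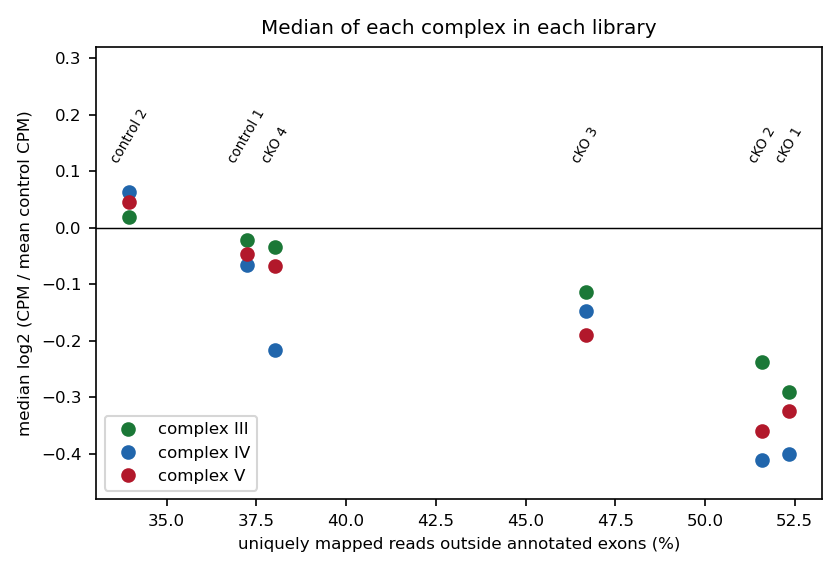
The median log2 ratio of CPM to the control mean (y axis) of complexes III, IV and V is plotted for each of the 6 libraries. The x axis is the percentage of uniquely mapped reads over no annotated exon on the gene's own strand. Reads over an exon but on its opposite strand are thus included. Cmtr1 cKO 1 and 2, above 51%, have the lowest medians, and Cmtr1 cKO 4, at 38.02%, has medians of -0.034 in complex III, -0.067 in complex V and -0.22 in complex IV.

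With this share as a covariate beside genotype, most calls ended. Cox7a2l (-0.40, adjusted p = 0.0038) and Cox8a (-0.46, adjusted p = 0.00783) stayed lower, and the other 6 were not called, with log2 fold changes from -0.21 (Cox7a2) to -0.15 (Atp5mpl). In that fit 4 members were higher, Cox5a (0.45), Cox7b (0.37), Atp5g3 (0.34) and Uqcrc2 (0.31), against 2.71% of all genes lower and 2.51% higher, and the median over members was 0.01. The medians of complexes III and V turned to 0.025 and 0.005, and that of complex IV was -0.13. The difference between Atp5g2 (-0.21) and Atp5g3 kept its direction there. Every Cmtr1 cKO library had a higher share of reads outside exons than either control, so genotype and this share cannot be told apart in full. Whether the share is itself an effect of genotype was not tested.

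**Figure D5:**
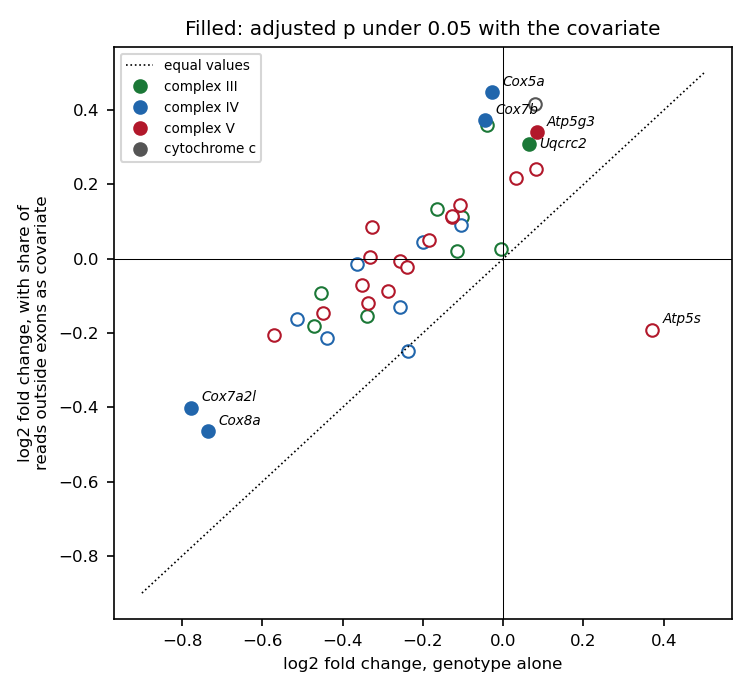
The log2 fold change of the 38 genes with genotype alone (x axis) is plotted against that with the percentage of reads outside exons added as a term (y axis), and filled points are called in the second fit. Points lie above the dotted line of equal values except those of Atp5s and Cox7c, and Cox7a2l and Cox8a are at -0.40 and -0.46 on the y axis.

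Other genes of the pathway were read from lists. Of the 6 mitochondrially encoded subunits of these complexes only 2 had enough counts. The catalytic subunit gene mt-Co1 of complex IV had 8909 and 8486 CPM in control against 5793, 5800, 6115 and 6809 CPM in Cmtr1 cKO (log2 fold change -0.50 ± 0.15, SE, adjusted p = 0.0463). The cytochrome b gene mt-Cytb of complex III had 1442 and 1358 CPM in control against 896, 894, 960 and 1078 CPM in Cmtr1 cKO (-0.55 ± 0.10, SE, adjusted p = 0.00895). Both fell without overlap, and with the covariate mt-Cytb stayed called (-0.35, adjusted p = 0.043) and mt-Co1 did not (-0.33, adjusted p = 0.189). The genes mt-Co2, mt-Co3, mt-Atp6 and mt-Atp8 held 0 to 3 counts per library and were not tested. Only uniquely mapped reads were counted, so these counts do not show that the RNAs were absent. The cause of the low counts was not tested.

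The assembly factors include 2 called lower and 1 called higher. Of 6 complex III factors 1 fell and 1 rose, with a median of -0.07. Uqcc3, which helps cytochrome b into the complex, went from 32.1 ± 2.1 to 22.3 ± 2.5 CPM (SD, n = 2 and n = 4, log2 fold change -0.52, adjusted p = 0.0175). Lyrm7, the chaperone of the Rieske protein, had 6.56 and 4.18 CPM in control against 10.9, 10.2, 9.52 and 9.81 CPM in Cmtr1 cKO, and so rose by 0.90 ± 0.20 (SE, adjusted p = 0.016) while the Rieske gene Uqcrfs1 itself had -0.45. Of 26 tested complex IV factors 1 fell, Coa5 (-0.44, adjusted p = 0.0378), and 0 rose, with a median of -0.04, against 6.77% of all genes called lower and 4.66% higher. Of 5 complex V factors, the inhibitor Atpif1 (0.02) included, 0 were called. With the covariate 0 genes of these 3 lists were called, with log2 fold changes of 0.75 for Lyrm7 (adjusted p = 0.0808), -0.31 for Uqcc3 (adjusted p = 0.235) and -0.08 for Coa5 (adjusted p = 0.664). The median of the complex IV factors was then 0.10.

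Of 36 nuclear complex I subunits 3 fell and 0 rose, against 6.77% of all genes lower, with a median of -0.07. These were the small accessory subunits Ndufa1 (-0.54, adjusted p = 0.034), Ndufa6 (-0.42, adjusted p = 0.027) and Ndufa3 (-0.38, adjusted p = 0.0175). With the covariate 0 of the 36 were lower and 3 higher, against 2.71% of all genes lower and 2.51% higher, with a median of 0.13. Of the 4 complex II subunits 0 were called, with log2 fold changes from -0.28 (Sdhc) to 0.14 (Sdhd), and Sdhd was called higher with the covariate (0.53). Of 13 tested regulators of mitochondrial biogenesis 1 rose, the mitochondrial transcription factor gene Tfb2m (0.48 ± 0.14, SE, adjusted p = 0.0435), and 0 fell, with a median of -0.03. Over all genes 4.66% were called higher and 6.77% lower. With the covariate Tfb2m was not called (0.29, adjusted p = 0.391).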

How the data were processed

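The deposited files are whole-number counts of reads per gene, 1 table per library, in the layout of STAR's gene counts. Per the submitters' processing notes the tools were STAR 2.5.2b and edgeR and the builds mm10 and GRCm38. Which annotation the authors counted on: not given in the sources used here. STAR counts reads that map to 1 place and overlap exons of 1 gene. Rows that name no gene held 52.1% to 62.0% of reads and were left out. Column 4 holds the reads on the gene's own strand (5.57 to 22.7 times those of the other strand). IDs were matched to GENCODE vM21 without version numbers (46488 of 46983), which gave symbols, coordinates and transcript lengths.

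Genes were kept by filterByExpr, scaled by TMM and tested with the quasi-likelihood test of edgeR 4.0.16 in R 4.3.3 (robust, genotype the only term), with Benjamini-Hochberg adjustment over all 12748 genes and a call at an adjusted p under 0.05. CPM use the TMM-scaled library sizes, and the SE is the log2 fold change divided by the square root of F. The common dispersion was 0.00919 (coefficient of variation 9.59%). The code was tested on simulated data. Alternatives used DESeq2 1.42.0, limma 3.58.1, other scalings, filters and strands, offsets for length and GC content, a covariate, a replicate block and leaving out each library. Shared sequence was found with blastn 2.17.0 (at least 98% identity over 60 bases, GENCODE transcripts). Promoters are from RefSeq (GRCm38.p6). Intervals and floors (3 counts) cover counting error only.

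No label says whether each library is a different mouse. The p-values cover only the spread among these libraries, which may be technical. The members, lists and motifs were chosen with earlier results of these data known. Every member could be named, and full statistics are given for called members, the largest uncalled change in each complex, Cyc1, Cycs and paralogs of called members. Lists give their called genes with the largest changes.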

Additional observations from a re-analysis of the deposited data

How the results depend on the processing

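The 8 genes called lower stayed 8 with RLE factors, with TMM factors made without ribosomal protein, mitochondrial and ribosomal RNA genes, and on protein-coding genes alone, and DESeq2 also called 8, of which 7 are the same (without Uqcrb). Unstranded counts gave 6, with 1 in complex III and 1 in complex V, the length and GC correction 7, with 1 in complex V, no filter 14, with 6 in complex V, and limma with library weights 18, with 9 in complex V. With reads outside exons as the covariate 2 were lower, 0 in complex III, 2 in complex IV and 0 in complex V, 4 were higher, and the median turned to 0.013. Leaving out 1 library gave 1 (without control 1 or 2) to 21 (without Cmtr1 cKO 4), with 5, 5 and 3 without Cmtr1 cKO 1, 2 and 3. The range was 0 to 3 for complex III, 1 to 7 for complex IV and 0 to 11 for complex V. With a single control the lone library is assumed to vary like the Cmtr1 cKO libraries.

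Replicate numbers are shared by control and Cmtr1 cKO 1 and 2, but the labels do not say that they mark a pair. Deviations from the group mean correlated at 0.13 for the libraries numbered 1 and at -0.13 for those numbered 2, over 12748 genes. The deviations of the 2 controls mirror each other, so their signs are opposite by construction. Control 1 also correlated at 0.13 with Cmtr1 cKO 2, and control 2 at 0.16 with Cmtr1 cKO 4. These values thus cannot show whether the numbers mark a pair. The replicate block on these 4 libraries gave 29 lower, 5 in complex III, 11 in complex IV and 13 in complex V. The same 4 libraries without the block, a setting added after seeing the data, gave 27, 4, 11 and 12. Of all genes 19.1% were called lower with the block and 18.7% without it. Under the block and without it the fold changes that turned negative were Atp5c1 (-0.059 in both), Atp5g3 (-0.039 and -0.037), Uqcrc2 (-0.045 and -0.044) and Atp5g1 (-0.022 and -0.021), none of them called. The log2 fold change of Cycs was -0.096 and -0.094.

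Fold changes that turned with the covariate were those of Cox5b (0.089), Atp5f1 (0.146), Cox6a1 (0.045), Atp5l (0.085), Cox5a (0.448), Uqcrc1 (0.113), Uqcr11 (0.134), Atp5b (0.113), Uqcr10 (0.359), Uqcrq (0.021), Atp5h (0.050), Atp5s (-0.191), Cyc1 (0.025), Atp5j (0.114), Atp5o (0.005), Cox7b (0.373), Gabpa (0.130), Usmg5 (0.183) and Sdhc (0.003). Cyc1, at -0.01, also turned to 0.001 with the other TMM factors, 0.025 on protein-coding genes, 0.003 on unstranded counts and 0.021 after the length and GC correction, Cox5a to 0.001 on protein-coding genes and Cycs to -0.055 after the length and GC correction. With 1 library left out the log2 fold change ran from -0.015 to 0.075 for Atp5c1, -0.013 to 0.114 for Uqcrc2, -0.025 to 0.167 for Cycs, -0.166 to 0.078 for Cox5a, -0.168 to 0.052 for Uqcr10, -0.386 to 0.116 for Uqcr11, -0.273 to 0.081 for Uqcrq, -0.160 to 0.037 for Cox7b and -0.020 to 0.027 for Cyc1. The cause of these changes was not tested.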
